A study of Caenorhabditis elegans with 4 samples.

Results

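Tagged HLH-30 had 424 listed peaks on chromosome II of Caenorhabditis elegans, out of 2236 listed on all 6 chromosomes. These 424 peaks are every peak that the combined list of the series places on chromosome II, so they were chosen by chromosome name alone and no measured value entered the choice. The data are chromatin immunoprecipitation followed by sequencing (ChIP-seq) of late-embryo hermaphrodites of strain OP433, in which 2 samples were immunoprecipitated with anti-GFP antibodies and 2 are input DNA of the same strain. All 4 samples carry the mutation unc-119(ed3) on chromosome III and the insertion wgIs433, which was introduced by bombardment and bears hlh-30::TY1 EGFP FLAG beside the rescuing unc-119(+). The genotype lists no change at the native hlh-30 gene, and no strain without the tag was used here. The animals were kept at 20 °C, crosslinked with 2% formaldehyde and lysed whole, so each value is an average over all tissues of the embryo. Separate cultures are not stated for the replicates, and the spread between them may be technical.

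HLH-30 belongs to the basic helix-loop-helix transcription factors and is the worm counterpart of mammalian TFEB. Factors of this family bind DNA as dimers, through a short palindromic element called the E-box. In adult worms HLH-30 is known for switching on genes of autophagy and of the lysosome, among them fat-breakdown enzymes used in fasting, and it moves into the nucleus under stress. A ChIP peak is a stretch of genome recovered with the tagged protein more often than in a control. It marks occupancy in a population of embryos and does not by itself assign a gene. Positions below are 1-based coordinates of the WormBase WS180 build. No WS180 genome or gene annotation was used here, so the peaks are given by position and width, without sequence, gene or exon.

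Replicate 2 listed 247 peaks on chromosome II, replicate 1 listed 108 and the combined list held 424. For each peak the authors deposited a q-value. To within 1e-09 of its size, every one of the 779 chromosome II values in the 3 lists was the lower binomial tail for exactly 1 pair of whole numbers. Here the larger member of the pair is taken as the ChIP tags, the smaller as the control tags and their ratio as the enrichment, although the files do not name these quantities. Brackets give 95% Clopper-Pearson intervals, which cover counting error only, treat the control tags as counted and treat peaks as independent. The read depth of the libraries is unknown. The combined list is not shown to be independent of the replicate lists. At the 100 chromosome II peaks that had exactly 1 partner per replicate, the median ratio of combined ChIP tags to the sum over replicates was 1.02 (quartiles 0.955 and 1.10).

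A typical chromosome II peak was short and modestly enriched. The median combined peak was 332 bp wide (quartiles 267 and 475) and held 63 ChIP tags (46 and 91.25) against 17 control tags (12 and 24). On the other chromosomes the medians were 357 bp, 70 ChIP tags and 20 control tags. Median enrichment was 3.88-fold on chromosome II (quartiles 3.06 and 5) and 3.64-fold elsewhere (2.95 and 4.67). The replicate lists gave 5.33-fold on II and 4.75-fold elsewhere in replicate 2, and 4.69-fold on II and 4.57-fold elsewhere in replicate 1. These differences from the pooled chromosomes were small and not particular to II, since III had 4-fold, 5.375-fold and 5.14-fold in the combined, replicate 2 and replicate 1 lists. The median control level per kb of peak was 47.5 tags on II and 53.3 elsewhere in the combined list, with 49.9 on III and 46.6 on V. The part of the control level in the enrichment was not tested. Peaks on II covered 170.9 kb in the combined list, 109.5 kb in replicate 2 and 40.7 kb in replicate 1.

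Chromosome II carried 27.8 peaks per Mb in the combined list, 16.2 in replicate 2 and 7.08 in replicate 1. The other chromosomes carried 21.4, 12.9 and 6.39 in the same order of lists. The other autosomes compared here lay on either side in the combined list, with 34.7 per Mb on III and 18.5 on V. It held 19.0% of all combined peaks, 16 of the 100 peaks with the smallest deposited values and 29 of the 200 smallest, or 14.5%. By enrichment, it held 14 of the 58 peaks at 10-fold or more and 96 of the 438 from 5- to 10-fold.

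Peaks were unevenly spread, and the thinnest of 3 equal parts was the left one. The chromosome was divided into 3 equal parts of 5.09 Mb, with its length taken as the end of its last peak in any of the 3 lists, 15263446. The middle part held 176 combined peaks (34.6 per Mb), the right part 162 (31.8 per Mb) and the left part 86 (16.9 per Mb). These are 41.5% (36.8 to 46.4), 38.2% (33.6 to 43.0) and 20.3% (16.6 to 24.4) of the chromosome's peaks, where 38.1%, 31.4% and 30.4% of all combined peaks in the series lay in the middle, right and left part of their chromosome. The middle part of chromosome II was therefore 1.09 times as dense as the right part and 2.05 times as dense as the left. With these cuts, the contrast lay between the left part and the rest more than between the middle and the outer parts. The cuts were not placed at known borders between centre and arms. Within the right part, the 1-Mb bins starting at 11, 12, 13 and 14 Mb held 43, 25, 20 and 32 combined peaks.

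Each replicate showed the same shortage on the left. In replicate 2 the middle part held 99 peaks, the right part 108 and the left part 40, where 37.9%, 33.1% and 29.0% of its peaks over all chromosomes lay in those parts. Replicate 1 held 41, 51 and 16 peaks in the middle, right and left part, against series-wide shares of 39.4%, 33.7% and 26.8%. The left part thus held 16.2% of replicate 2 peaks (11.8 to 21.4) and 14.8% of replicate 1 peaks (8.71 to 22.9) of this chromosome. Right over left gave a ratio of 2.7 for replicate 2 and 3.19 for replicate 1, beside 1.88 for the combined list. Under this division the right part, not the middle, held the most peaks in both replicates. Whether both lists were scored against the same control reads is not stated in the sources used here.

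The same division on similar chromosomes gave other proportions. On chromosome III, the right part held 154 combined peaks and the left part 139. On chromosome V, the right part held 97 and the left part 123. On the 5 other chromosomes together the right part held 541 and the left part 594 in the combined list. There the right part held 335 and the left part 348 in replicate 2, and the right part 168 and the left part 158 in replicate 1. Right and left thus differed less over these 5 chromosomes together, in each list, than on II. Opposite differences on single chromosomes cancel in such a sum, and III and V did differ in direction. Chromosomes I, IV and X were not counted singly. No test of the difference between II and the other chromosomes was made, since peaks are not replicates.

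**Figure D1:**
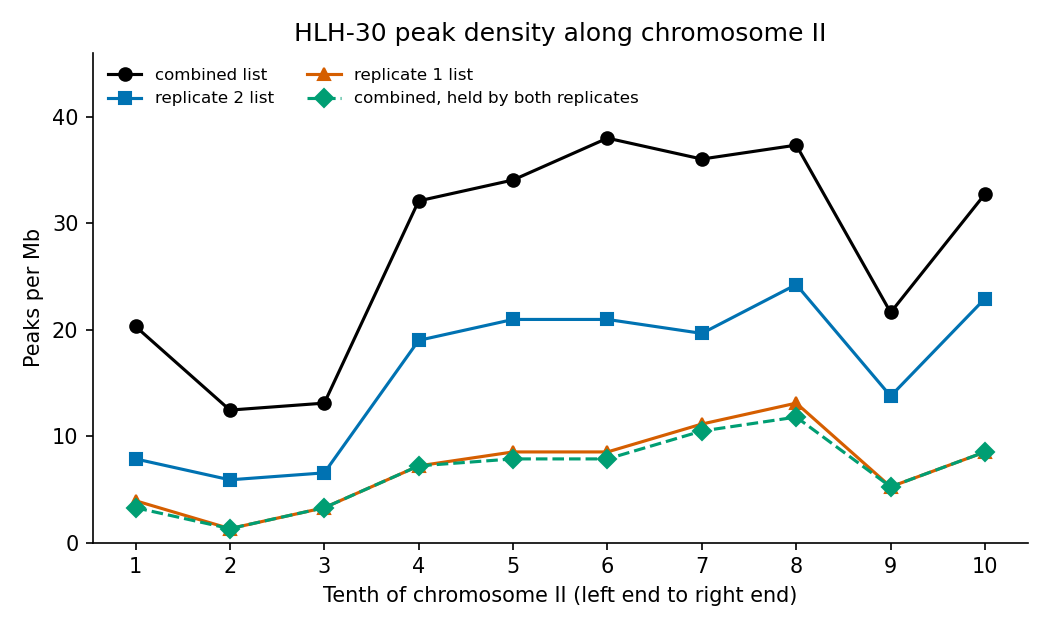
Peaks per Mb (y axis) in 10 equal stretches of chromosome II from the left end to the right end (x axis), for the combined list, each replicate list and the combined peaks held by both replicates. The combined density is 20.3 or less in stretches 1 to 3, between 32.1 and 38.0 in stretches 4 to 8, 21.6 in stretch 9 and 32.8 in stretch 10.

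In finer steps, density rose sharply about 30% of the way along the chromosome. Of 10 equal stretches, the first 3 held 31, 19 and 20 combined peaks, and the next 5 held 49, 52, 58, 55 and 57. The ninth stretch held 33 and the last one 50. The plot of density by stretch shows the same outline in each replicate list, including the dip in stretch 9, with 21 peaks in replicate 2 and 8 in replicate 1. Counted in bins of 1 Mb, the fullest ran from 11 to 12 Mb with 43 combined peaks, of which 14 were held by both replicates. The emptiest full bin ran from 1 to 2 Mb, with 7 combined peaks, 2 peaks in replicate 2 and 0 in replicate 1.

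The 3 widest empty stretches lay in the left part. Neighbouring combined peaks were separated by a median of 21.1 kb (quartiles 6.38 and 49.0 kb), and 27 of the 423 gaps exceeded 100 kb. From centre to centre, the nearest other peak was a median of 9040 bp away on chromosome II and 8691 bp away on the other chromosomes. The widest gap, 395.6 kb, lay between the peaks ending at 1808554 and starting at 2204154, and neither replicate listed a peak in it. The next, 335.9 kb between 2418050 and 2753971, contained 1 replicate 2 peak that the combined list lacked. Then came 252.4 kb between 4044712 and 4297089, with no replicate peak in it. The first peak of the combined list, at 18816 to 19289, was held by both replicates at 8.06-fold (4.85 to 14.2). The last one, at 15262917 to 15263396, was held by replicate 2 alone at 4.04-fold (2.61 to 6.47).

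Properties of the peaks also differed along the chromosome, though less than their number. Median enrichment of combined peaks was 3.58-fold in the middle part, 4.11-fold in the right and 4.13-fold in the left. Median control tags per kb of peak ran the other way, with 52.2 in the middle, 44.9 in the right and 43.5 in the left. Replicate 2 had 26.7, 22.6 and 22.4 control tags per kb in these parts, and replicate 1 had 31.0, 27.2 and 29.0. A higher control level in the middle was also present on the other chromosomes, at 56.8, 50.4 and 50.6 per kb in the combined list. The part of this level in peak counts and enrichment was not tested.

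Of the 424 combined peaks on chromosome II, 102 were held by both replicates, that is, overlapped a peak of each by at least 1 bp. This is 24.1% (20.1 to 28.4), and the share over all combined peaks was 26.8%. Replicate 2 alone held 133 peaks, or 31.4%, where the series-wide share was 30.7%. Replicate 1 alone held 3, or 0.708%, where the series-wide share was 1.74%. Neither replicate held 186, or 43.9% (39.1 to 48.7), where the series-wide share was 40.7%. All 4 shares lay near those of the whole series.

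Seen from the replicate lists, the stronger sites recurred. Of the 108 replicate 1 peaks on II, 104 had a replicate 2 partner, which is 96.3% (90.8 to 99.0), beside 93.7% over all replicate 1 peaks. Of the 247 replicate 2 peaks, 103 had a replicate 1 partner, which is 41.7% (35.5 to 48.1), beside 45.0% over all replicate 2 peaks. Replicate 2 peaks with a partner had a median of 71 ChIP tags and 425 bp, and those without had 41.5 ChIP tags and 343 bp. Most replicate 2 peaks of this chromosome thus had no counterpart in replicate 1, and those were the smaller ones. The 4 replicate 1 peaks without a counterpart ranked 54, 67, 93 and 104 among the 108.

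Peaks held by both replicates were wider and more enriched than the rest. Their median width was 443.5 bp, their median enrichment 5.62-fold (quartiles 4.44 and 7.28) and their median ChIP tag number 121.5. Those of replicate 2 alone had medians of 350 bp, 3.67-fold and 67 ChIP tags. Peaks held by neither had 275 bp, 3.37-fold (2.90 and 4.10) and 46 ChIP tags. ChIP tags per kb of peak followed the same order, at 248.8 for peaks held by both, 181.2 for replicate 2 alone and 168.3 for neither. Control tags per kb differed little, at 46.1, 48.6 and 47.7 in the same 3 classes. Over all chromosomes these classes, in this order, had median widths of 473, 366 and 287 bp. Their median enrichments there were 5.5-, 3.46- and 3.21-fold, so the order was not particular to II. The combined list may hold the replicates' own reads, so this order is no independent check of either replicate.

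**Figure D2:**
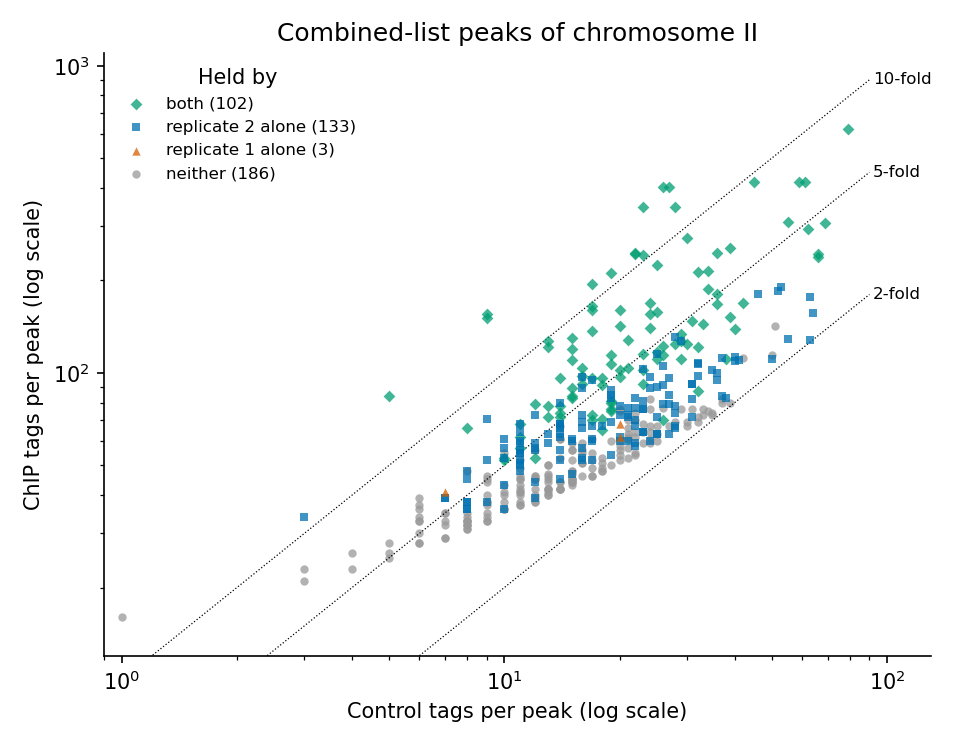
ChIP tags (y axis) against control tags (x axis), both on log scales, for each of the 424 combined peaks of chromosome II, marked by which replicates held them. Dotted lines show 2-, 5- and 10-fold enrichment, and the 102 peaks held by both lie mostly above the others, with a median of 121.5 ChIP tags against 46 for the 186 held by neither.

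The share held by both fell steeply with rank. Ordered by deposited value, the first 42 peaks of chromosome II were all held by both replicates, and the first held by neither stood at rank 102. Both replicates held 47 of the top 50, 35 of the next 50 and 17 of the 100 peaks after those. They held 3 of ranks 201 to 300 and 0 of the last 124. Since the combined list may hold the replicates' own reads, this fall is no independent check of either replicate. Rank bands were not counted on the other chromosomes. At 10-fold enrichment or more, 12 of 14 peaks were held by both, and from 5- to 10-fold 54 of 96 were. From 2- to 3-fold, 3 of 93 were. On the other chromosomes the corresponding counts were 43 of 44, 247 of 342 and 15 of 453.

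The share held by both was also counted by part of the chromosome. Both replicates held 39 of the 176 peaks in the middle part, or 22.2% (16.3 to 29.0), 48 of 162 in the right part, or 29.6% (22.7 to 37.3), and 15 of 86 in the left part, or 17.4% (10.1 to 27.1). The intervals overlap. Over all chromosomes the shares were 27.9% in the middle, 29.3% in the right and 22.9% in the left, so the left share was the lowest there too. Peaks held by both reached 7.67 per Mb in the middle, 9.43 in the right and 2.95 in the left. The median enrichment of these peaks was 5.5-fold in the middle, 5.45-fold in the right and 6.32-fold in the left.

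The 20 peaks with the smallest deposited values held 6423 of the 35270 ChIP tags in all combined peaks of the chromosome, or 18.2%. Of these, 8 lay in the middle part, 11 in the right part and 1 in the left. Each was held by both replicates, and at 20 of 20 the replicate 2 enrichment exceeded that of replicate 1. The most significant one, at 6347256 to 6348969, was also the widest at 1714 bp, with 622 ChIP tags against 79 control tags. It joined a pair of peaks that each replicate listed apart. In replicate 2 the stronger peak was 23.7-fold enriched and in replicate 1 it was 8.84-fold enriched. The weaker one, starting at 6347655 in replicate 2 and at 6347723 in replicate 1, reached 7.38-fold (4.12 to 14.4) in replicate 2, against 5.27-fold (2.74 to 11.1) in replicate 1. The single combined value of 7.87-fold therefore covers unequal sites.

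In the combined list, the 3 sites described next were more strongly enriched than the first, at 7.87-fold. The stronger peak of the first site lay below them in replicate 1, at 8.84-fold. In replicate 2 it lay within their range, at 23.7-fold. The peak at 11967160 to 11968016, the second by deposited value and 857 bp wide, held 404 against 26 tags, an enrichment of 15.5-fold (10.4 to 24.1). It had 235 against 9 tags, or 26.1-fold (13.5 to 57.8), in replicate 2 and 168 against 11, or 15.3-fold (8.32 to 31.2), in replicate 1. The 521 bp peak at 8787205 to 8787725 was the first chromosome II peak of each replicate by deposited value, though not by enrichment. It held 402 against 27 tags in the combined list, 294 against 14 in replicate 2 and 185 against 15 in replicate 1. The 401 bp peak at 8561154 to 8561554 reached 15.0-fold (9.86 to 24.1), with 258 against 11 tags in replicate 2 and 142 against 13 in replicate 1. At these 3 sites replicate 2 had more ChIP tags than replicate 1 over fewer control tags, and the intervals of both replicates overlapped.

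The right part contained a second set of strong sites, near its end. The peak at 14404742 to 14405671 held 418 against 45 tags, or 9.29-fold (6.82 to 12.9), with replicate 2 at 11.6-fold and replicate 1 at 8.06-fold. About 5 kb to its left, the peak at 14399492 to 14400080 reached 11.2-fold (7.22 to 18.2), with 16.3-fold in replicate 2 and 14.8-fold in replicate 1. Its replicate values were the closest of the top 20. The peak at 14251024 to 14251881 reached 12.4-fold (8.45 to 19.0), and its neighbour at 14249330 to 14250607 reached only 4.46-fold (3.43 to 5.88) over 1278 bp. That neighbour ranked 19 on the chromosome in the combined list, 22 in replicate 2 and 46 in replicate 1.

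The other strong sites of the centre were of moderate width. The peaks at 9603278 to 9603777, 6370056 to 6370528 and 9273938 to 9274357 were 420 to 500 bp wide, with 11.0-fold, 10.5-fold and 11.1-fold enrichment. The peaks at 5593412 to 5593932 and 5425930 to 5426512 reached 9-fold and 6.54-fold. In the right part, 11633917 to 11634503 reached 6.83-fold and 12102262 to 12102646 reached 11.5-fold. The second of these was the most isolated of the 20, with its nearest neighbour 49472 bp away. The 1 site of the left part among the 20, at 221135 to 221880, reached 9.13-fold (6.25 to 13.8), with 12.3-fold in replicate 2 and 6.47-fold in replicate 1. It lies close to the left end of the chromosome and not in the thin stretch that follows.

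**Figure D3:**
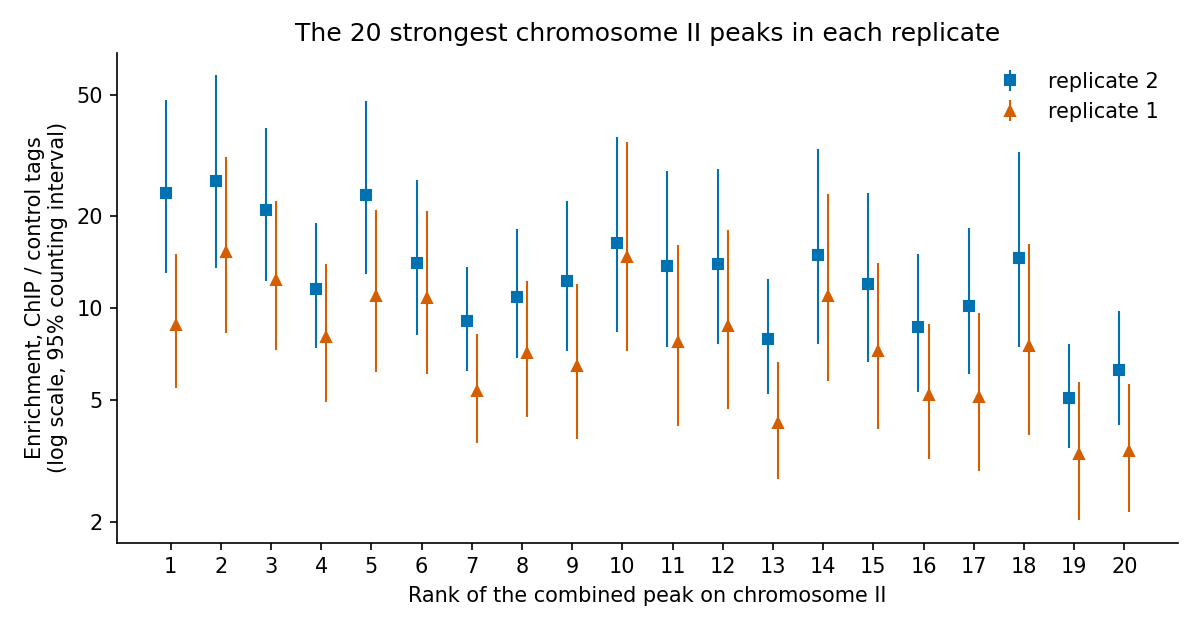
Enrichment (y axis, log scale, with the 95% counting interval) in replicate 2 and replicate 1 for the 20 chromosome II peaks with the smallest deposited values, ordered by rank in the combined list (x axis). The replicate 2 point lies above the replicate 1 point at 20 of 20 peaks.

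Rank by deposited value and rank by enrichment named partly different sites. Of the 10 most enriched peaks held by both replicates, 7 were among the 20 just described. The other 3 were 318 to 382 bp wide and had few control tags. The highest enrichment on the chromosome was 17.2-fold (8.84 to 38.4), at 601308 to 601689 in the left part, from 155 against 9 tags. It had 78 against 4 tags in replicate 2 and 59 against 4 in replicate 1. The peak at 11759231 to 11759562 had 16.8-fold (6.92 to 53.1) from 84 against 5 tags, with 54 against 3 in replicate 2 and 32 against 3 in replicate 1. The peak at 13447602 to 13447919 had 16.8-fold (8.61 to 37.4) from 151 against 9 tags, with 95 against 4 in replicate 2 and 63 against 5 in replicate 1. These 3 sites recurred in both replicates, and their wide intervals follow from the small control numbers.

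Replicate 2 gave the higher enrichment at nearly all shared sites of chromosome II. At 44 closely matched peaks, whose edges differed by at most 80 bp in all, it was higher at 41, or 93.2% (81.3 to 98.6), and over all such peaks in the series the share was 91.8%. There the median was 7.03-fold for replicate 2 and 5.24-fold for replicate 1. The ratio of replicate 2 to replicate 1 had a median of 1.42 (quartiles 1.20 and 1.64). Median ChIP tags were 59.5 in replicate 2 and 46.5 in replicate 1, and median control tags were 8.5 in replicate 2 and 9 in replicate 1. Peaks were paired by overlap, so their centres could not lie far apart. At all 102 pairs with a single partner each, peak centres lay a median of 26 bp apart, and at most 306.5 bp apart. Replicate 2 peaks were wider at 92 of these 102 pairs, with a median of 423.5 bp in replicate 2 and 334 bp in replicate 1. Over all chromosomes they were wider at 505 of 596 such pairs.

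Most combined peaks of chromosome II, 338 of 424, had no close neighbour, a share near that of the whole series. The group with the most members in each list lay here. A neighbour within 2000 bp, centre to centre, was found for 86 of the 424 combined peaks, or 20.3% (16.6 to 24.4), where the share over all combined peaks was 19.1%. In the replicate lists the share was 24.7% (19.4 to 30.6) on II and 14.5% (12.4 to 16.7) on the other chromosomes in replicate 2, where it was 16.4% over all chromosomes. It was 22.2% (14.8 to 31.2) on II and 10.5% (8.08 to 13.4) elsewhere in replicate 1, where it was 12.5% over all chromosomes. In both replicates the intervals of II and of the other chromosomes did not overlap, while in the combined list they did. Set against single chromosomes, the intervals of II overlapped those of III in each list. III had 18.9% (14.6 to 23.9) in replicate 2, 14.2% (9.11 to 20.7) in replicate 1 and 25.5% (21.7 to 29.7) in the combined list, where it was above II. V had 14.0% (9.59 to 19.5) in replicate 2, 14.7% (8.63 to 22.7) in replicate 1 and 15.6% (12.1 to 19.6) in the combined list. No test was made, because grouped peaks are not independent of each other.

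**Figure D4:**
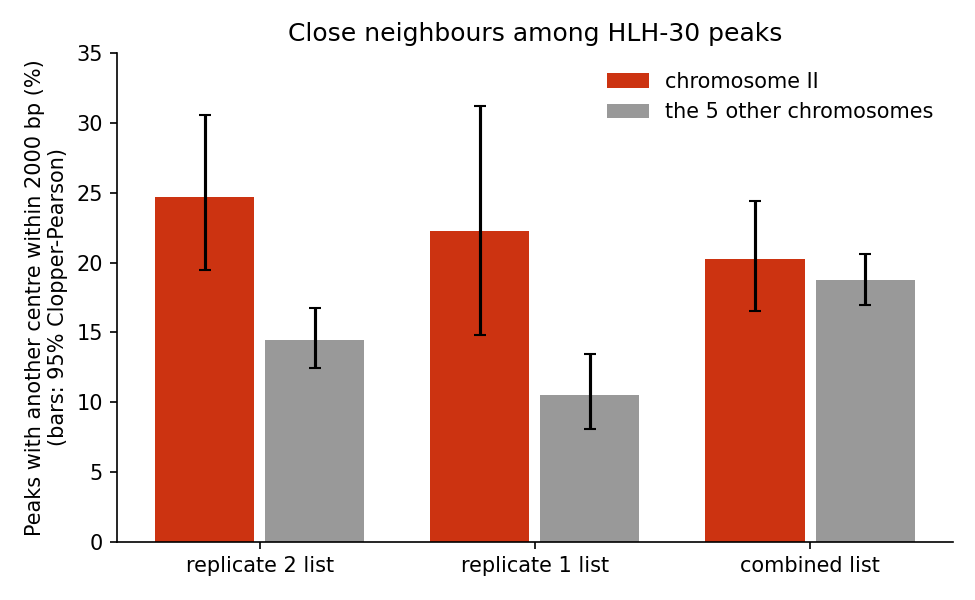
Percentage of peaks with another peak centre within 2000 bp (y axis, with 95% Clopper-Pearson intervals) on chromosome II and on the 5 other chromosomes, for each list (x axis). The replicate 2 and replicate 1 lists give 24.7% and 22.2% on II beside 14.5% and 10.5% elsewhere, and the combined list gives 20.3% beside 18.8%.

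Grouped peaks on the chromosome were the larger ones. The 86 grouped peaks had a median width of 438.5 bp and 84.5 ChIP tags, and the 338 lone peaks had 317 bp and 60 ChIP tags. Both replicates held 34 of the 86 grouped peaks, or 39.5% (29.2 to 50.7), and 68 of the 338 lone ones, or 20.1% (16.0 to 24.8). On the other chromosomes the shares were 33.5% and 26.1%. Median enrichment was 4.12-fold for grouped and 3.83-fold for lone peaks of II. The 86 peaks formed 35 groups, of which 23 were pairs and 9 had 3 members.

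The largest group held 5 peaks between 10551791 and 10559992, a span of 8202 bp, and each of the 5 was present in both replicates. Its outer members held the most ChIP tags. The right one, at 10558307 to 10559992, held 418 against 61 tags, or 6.85-fold (5.23 to 9.12), with 10.85-fold in replicate 2 and 7.16-fold in replicate 1. The left one, at 10551791 to 10552693, was enriched 5.64-fold (4.22 to 7.65), with 7.92-fold in replicate 2 and 4.22-fold in replicate 1. The 3 inner members reached 5.57-fold, 3.78-fold and 2.69-fold. The first inner member, at 10553926 to 10554286, was close to the left outer one, with 6.43-fold in replicate 2 and 4.29-fold in replicate 1. The last inner member, at 10557221 to 10557570, ranked only 257 on the chromosome and was the lowest-ranked peak held by both replicates.

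The surroundings of this group were rich as well. Within 10 kb of its ends lay 4 further combined peaks, among them those at 10546982 to 10548301 and 10548639 to 10549817, enriched 4.73-fold (3.58 to 6.32) and 7.07-fold (5.37 to 9.45). Both belonged to the 20 peaks of the chromosome with the smallest deposited values. Each replicate listed 8 peaks in this stretch of about 17 kb, and the combined list added a ninth, at 10544795 to 10545029. The 8 replicate 2 peaks took 6.79% of all ChIP tags in replicate 2 peaks of the chromosome, the 8 replicate 1 peaks took 10.4% of those in replicate 1, and the 9 combined peaks took 5.28%. To the right of the stretch, past 10563699, the combined list was empty for 225.4 kb. This stretch lies in the right part of the chromosome. Without it, right over left was 2.5 for replicate 2 and 2.69 for replicate 1, beside 1.78 for the combined list. The share of peaks with a close neighbour was then 22.6% for replicate 2 and 17% for replicate 1, beside 19.0% for the combined list, and the replicate 1 interval (10.2 to 25.8) overlapped that of the other chromosomes.

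**Figure D5:**
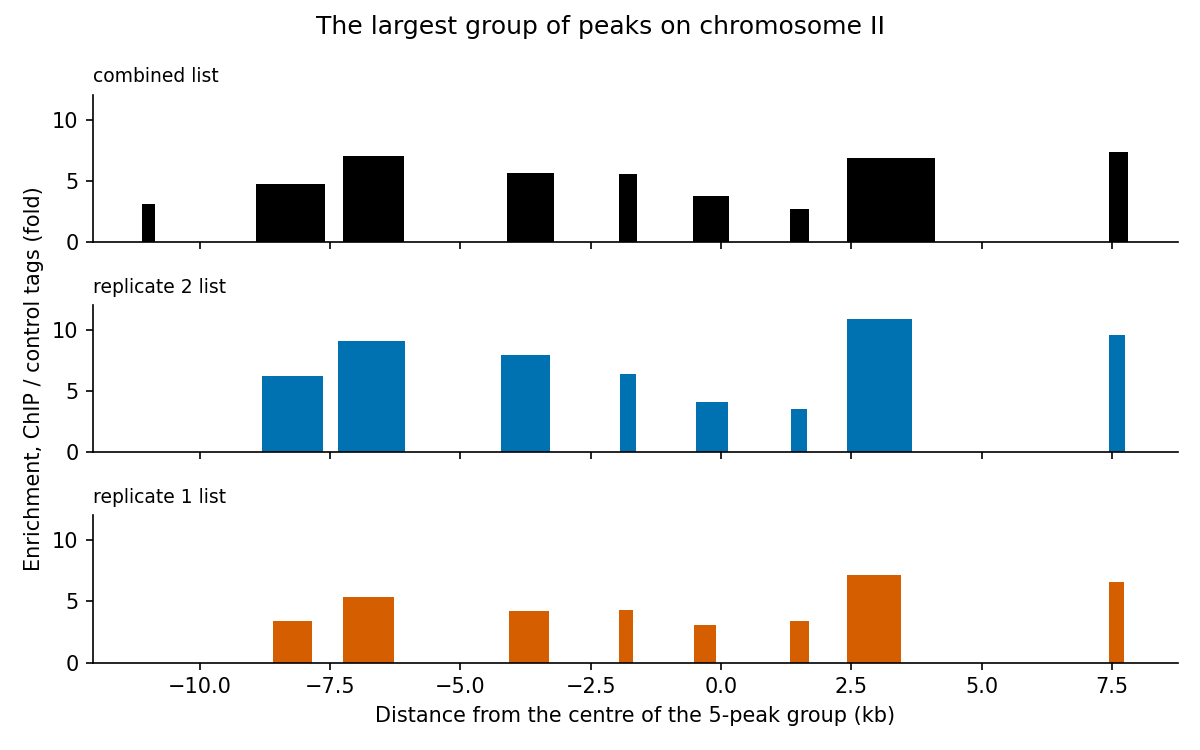
Peaks within 10 kb of the 5-peak group, drawn by their extent as distance from the group's centre in kb (x axis) and by their enrichment (y axis, bar height), in the combined, replicate 2 and replicate 1 lists. The 8 peaks of each replicate stand at matching places, and the combined list has 1 more at the left edge.

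The next largest groups were weak. The 4 peaks between 6836380 and 6839273 were enriched between 2.48- and 4.6-fold. Replicate 2 alone held 2 of them, and neither replicate held the other 2. The 4 peaks between 9261474 and 9265742 were enriched between 2.46- and 3-fold, and neither replicate held any of them. Both groups lay in the middle part of the chromosome.

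The widest peaks held many ChIP tags and the narrowest few, but enrichment did not follow this order. Peaks wider than 1000 bp had medians of 244 ChIP tags and 3.70-fold enrichment. Those of at most 200 bp had medians of 30 ChIP tags and 4.71-fold enrichment. Over all chromosomes the median enrichments of these 2 classes were 3.64-fold and 4.83-fold. No combined peak of II had a deposited value above 0.000168. Under the binomial tail, few tags reach so small a value only at a high ratio. These medians therefore cannot show how enrichment depends on width. Of the 11 peaks wider than 1000 bp, 6 were held by both replicates and 1 by neither. Over all chromosomes, 38 of 61 such peaks were held by both and 7 by neither. The 25 peaks of at most 200 bp were all held by neither replicate, held 16 to 35 ChIP tags and ranked 280 or lower. Over all chromosomes, neither replicate held 94 of the 101 peaks of at most 200 bp. The shortest spanned 2 bp, at 3311022 to 3311023, with 16 ChIP tags against 1 control tag, or 16-fold (2.49 to 671). Its high ratio rests on a single control tag. Neither replicate list of this chromosome held a peak under 174 bp.

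By deposited value, the first site listed for only 1 replicate stood at rank 43. It was held by replicate 2 alone and lay at 66224 to 67072, with 180 against 46 tags in the combined list, or 3.91-fold (2.82 to 5.53), and 100 against 22 in replicate 2. The next, which stood at rank 28 in replicate 2, was the highest-ranked replicate 2 peak of the chromosome without a replicate 1 partner. It and 3 others were at 13335028 to 13335705, at 11536947 to 11537966, at 1246831 to 1247273 and at 5660605 to 5661376, with 3.58-fold, 3.56-fold, 4.68-fold and 4.38-fold in the combined list. In replicate 2, in the same order, these 4 reached 5.30-fold (3.49 to 8.32), 4.94-fold (2.91 to 8.88), 6.57-fold (3.73 to 12.5) and 6.5-fold (2.73 to 18.8). By enrichment, the highest site of replicate 2 alone lay at 15043862 to 15044067, at 11.3-fold (3.56 to 57.7) from 34 against 3 tags, with 22 against 2 tags in replicate 2. The 3 peaks held by replicate 1 alone, at 8546963 to 8547275, 11345592 to 11345824 and 300967 to 301316, reached 3.4-fold, 5.86-fold and 3.1-fold. Since the depth of each library is unknown, a site missing from a replicate list is not shown to be unbound there.

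Peaks that neither replicate list held were mostly weak. The first of them by deposited value lay at 10389718 to 10390755, with 142 against 51 tags, or 2.78-fold (2.01 to 3.91). By enrichment it ranked 361 on the chromosome. The next 4 by deposited value lay at 848543 to 848878, 1502014 to 1502473, 11979612 to 11980283 and 10248351 to 10248635. They were enriched 4.79-fold, 3.8-fold, 3.75-fold and 5.5-fold. In the opposite direction, 1 replicate 1 peak and 10 replicate 2 peaks of the chromosome had no partner in the combined list. The replicate 1 peak, at 10300927 to 10301160, had 29 against 6 tags. The first of the 10 replicate 2 peaks by deposited value, at 14404221 to 14404522 with 42 against 10 tags, lay 219 bp left of the strong combined peak at 14404742. The other 9 ranked 173 or lower among the 247 replicate 2 peaks of the chromosome. They included a peak at 2657814 to 2658059, the only listed site inside the 335.9 kb gap, with 24 against 4 tags.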

How the data were processed

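The authors deposited 3 peak lists, 1 for each of the 2 ChIP samples and 1 combined list. Per the file headers, positions are on WormBase WS180, and each peak names PeakSeq as its caller and carries a q-value. Neither the aligner, the PeakSeq version and settings, the filters, the way of combining replicates nor the read depth is given in the sources used here. No file of the 2 input samples was used here.

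Members were all combined-list peaks with the sequence name II. They, the named regions and the alternatives were chosen with earlier results of these data known. Named regions were the 20 peaks with the smallest deposited q-values, the 10 most enriched peaks held by both replicates, up to 5 of each class held by fewer, the 3 widest, the first and last peaks, the 3 widest gaps and 3 largest groups, replicate peaks absent from the combined list, and the fullest and emptiest bins of 1 Mb. The 2 bp peak, the weak 4-peak groups' comparison and the surroundings of the largest group were singled out after their values were seen.

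Each deposited value was treated as an uncorrected binomial tail (probability 0.5) and matched to pairs of whole numbers with totals below 1500. All 4223 values in the 3 lists had a single match, 3 of them, none on II, only among totals up to 40000. With all values shifted by 1 part in 100000, 0 matched. In PeakSeq, control tags are scaled to the ChIP library. Peaks shared a site where they overlapped by at least 1 bp, and where a peak had several partners the one with the smallest value was used. Distances are between centres, and neighbours within 2000 bp form a group. With 1 group of 2 ChIP samples there is no comparison between conditions, and no p-value was computed. Peaks were described by counts, medians, quartiles and exact Clopper-Pearson intervals of 95%. Functions were tested on simulated data. Python 3.11.15, numpy 2.4.6, scipy 1.17.1, pandas 2.3.3 and matplotlib 3.10.9 were used.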

Additional observations from a re-analysis of the deposited data

How the results depend on the processing

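Of 46 alternative values for 10 results, 19 moved by less than the spread between the replicate lists or the counting interval. In all, 0 changed direction, which only the ratios could do, since the other results are always positive. The ratio of middle to right, not among the 10 results, did cross 1. It was 1.09 in the combined list, 0.917 in replicate 2, 0.804 in replicate 1 and 0.8125 among peaks held by both. The alternatives for the ratio of right to left, and those without the stretch around the largest group, were chosen after seeing the data. The share of combined peaks held by both replicates, 24.1%, was 48.8% for the better-scoring 50% of the combined list and 31.8% for peaks with at least 20 control tags. The share of replicate 1 peaks held by replicate 2, 96.3%, was 89.8% where 50% of both peaks had to overlap. The density ratio of the middle to the outer parts, 1.42, was 1.24 among peaks held by both and 1.20 for the better-scoring 50%. Each replicate list was also taken by itself in place of the combined list, and this ratio then ran from 1.22 to 1.34. The ratio of right to left, 1.88, was 3.2 among peaks held by both and 2.28 for the better-scoring 50%. Over the replicate lists it ran from 2.7 to 3.19. Median width, 332 bp, was 443.5 bp among peaks held by both, 424 bp for the better-scoring 50%, and 332.5 to 379 bp over the replicate lists. The median distance to the nearest peak, 9040 bp, was 33716 bp among peaks held by both. It ran from 14255 to 21565 bp over the replicate lists, and all those sets have fewer peaks. The share with a close neighbour, 20.3%, was 24.5% between facing edges, 7.08% within 1000 bp and 37.3% within 5000 bp. Over the replicate lists this share ran from 22.2% to 24.7%. Median enrichment, 3.88-fold, was 5.62-fold among peaks held by both, 4.71-fold for the better-scoring 50% and 3.15-fold with at least 20 control tags. It ran from 4.69- to 5.33-fold over the replicate lists. Where no cause is named, the cause was not tested. No paired analysis was possible because there is 1 group of peak lists, and the input samples that carry matching numbers entered no result. Library depth is unknown, and no WS180 genome was used, so genes, the E-box and sequence were not examined.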
